A study of Mus musculus with 2 samples.

Results

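Nuclear receptors are transcription factors that bind DNA through zinc fingers, and many of them are switched by a small ligand such as a steroid, a retinoid, a thyroid hormone, vitamin D, an oxysterol or a bile acid. In the liver they set the programmes for cholesterol, bile acid, lipid and drug metabolism, and several of them pair with a retinoid X receptor on their target sites. Binding is followed by exchange of corepressors for coactivators, and the orphan members of the family have no agreed natural ligand.

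The genes described here are the autosomal genes whose symbols in the annotated region lists belong to the Nr families with a number, letter and number, or to the Rar, Rxr, Thr, Esr, Esrr, Ror and Vdr genes, with the Hnf4 and Ppar genes left out. There were 31 of them among 14073 autosomal genes named in the lists. Of these, 28 had at least 1 methylated region in the Pemt-/- mouse and 30 in the Pemt+/+ mouse, and 27 had regions in both. The RefSeq gene table holds 41 autosomal genes with such names, and Esrrb, Nr0b2, Nr1d2, Nr1h4, Nr2f1, Nr4a1, Nr4a2, Nr5a2, Nr6a1 and Rxrg had no row in the lists used here and were not analysed.

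There was 1 liver library of Pemt-/- and 1 of Pemt+/+. Each record carries a single number and is called a mouse here, but the study's methods speak of several mice per genotype, so pooled animals cannot be told apart from a single one. Pemt encodes the enzyme that turns phosphatidylethanolamine into phosphatidylcholine with methyl groups from S-adenosylmethionine, and in the Pemt-/- mouse it is missing from the whole body. Both mice were fed high fat-high sucrose (HFHS) chow between 5 and 25 weeks of age, when the livers were taken, and the study's methods describe its mice as male. Methylated DNA was captured with a kit that uses a methyl-CpG-binding protein, sequenced, and reduced by the authors to lists of regions in which sequenced tags were enriched. The lists held 95650 autosomal regions with 1554629 tags for Pemt-/- and 129116 regions with 2796810 tags for Pemt+/+, so the Pemt+/+ list was both longer and deeper. These libraries hold no RNA, so neither the deletion nor the tissue could be checked against marker genes. With 1 library for each genotype no difference between the mice could be tested, and genotype, mouse and library cannot be told apart.

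Across the nuclear receptor genes, 173 regions were listed in Pemt-/- and 227 in Pemt+/+, covering 77.8 kb with 2711 tags and 102.7 kb with 4732 tags. The median size of a region was 13 tags for Pemt-/- and 18 for Pemt+/+, and for all regions with a gene 13 and 17. Median fold enrichment over the authors' background was 16.8 in Pemt-/- and 16.1 in Pemt+/+ for these genes, beside 16.4 and 16.1 for all regions with a gene. The smallest listed regions held 8 tags in Pemt-/- and 9 in Pemt+/+, but these numbers are not a limit on unlisted positions. The authors' score, which is derived from the p-value, was no lower than 50 in the lists. Regions with more tags also lay close to that score. An Nr2c1 region of 13 tags in Pemt-/- scored 50.89, and an Nr1h2 region of 18 tags in Pemt+/+ scored 51.06. A position without a region can therefore still carry tags, and possibly more than 8 or 9 of them. Regions were unevenly spread over the family, and Rora, Esrrg, Nr3c2 and Nr2c1 together took 64.4% of the Pemt-/- tags and 63.8% of the Pemt+/+ tags.

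Most regions lay in gene bodies. In Pemt-/-, 82.8% of 174 pairs of a region and a receptor gene were inside a transcript (95% Wilson interval 76.5 to 87.6%), beside 71.3% for all genes. In Pemt+/+, 82.2% of 230 such pairs were inside (76.7 to 86.6%), beside 70.8% for all genes. The shares upstream of a transcript were 5.75% in Pemt-/- (3.15 to 10.3%) and 5.65% in Pemt+/+ (3.33 to 9.43%). Those of all genes, 13.0% and 13.3%, lay above both intervals, but the intervals treat regions of the same gene as independent. The long genes Rora, Esrrg, Nr3c2 and Esr1 had no upstream region. They held 51, 27, 14 and 12 of the Pemt-/- pairs and 73, 35, 17 and 11 of the Pemt+/+ pairs. Nearly all of their regions lay inside a transcript. The low upstream share and the high inside share of the family therefore both depend on these few genes. Downstream regions made up 10.3% and 11.3% of the receptor pairs and 14.0% and 14.4% of all pairs. Without Rora alone the inside shares were 77.2% in Pemt-/- and 75.2% in Pemt+/+. With Esrrg, Nr3c2 and Esr1 left out as well, they fell below those of all genes in both mice.

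Transcript starts were nearly free of listed regions. The 10 upstream pairs in Pemt-/- lay between 3436 and 8385 bp from a start and the 13 in Pemt+/+ between 3244 and 9206 bp. None of them was within 2000 bp, where 15.2% of all upstream pairs in Pemt-/- and 15.1% in Pemt+/+ were found. With 10 and 13 pairs, a count of 0 still allows a share of up to 27.8% and 22.8% (upper Wilson limits), which takes in the values of all genes. A region overlapping a transcript's 5' end was listed for 2 of 28 receptor genes in Pemt-/-, Rorb and Nr5a1, beside 1.76% of all genes with a Pemt-/- region. In Pemt+/+ such a region was listed for 0 of 30, beside 2.42% of all genes.

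The bases around these starts show what kind of promoter the listed regions touched or missed. A methyl-CpG-binding protein captures DNA by its methylated CpG sites, so the capitals below mark each CpG in the 300 bases from 250 before to 50 after a start, taken from RefSeq promoters on build GRCm38.p6 and written 5' to 3' on the gene's strand. Regions of the lists are on build mm9, and the positions of the 2 builds are not comparable. The RefSeq table lists 2 starts for Rorb, and the Pemt-/- region met the one within the gene, where the transcript NM_146095.3 begins.
Rorb, start within the gene (chr19:19001068-19001367, minus strand, 5 CpG): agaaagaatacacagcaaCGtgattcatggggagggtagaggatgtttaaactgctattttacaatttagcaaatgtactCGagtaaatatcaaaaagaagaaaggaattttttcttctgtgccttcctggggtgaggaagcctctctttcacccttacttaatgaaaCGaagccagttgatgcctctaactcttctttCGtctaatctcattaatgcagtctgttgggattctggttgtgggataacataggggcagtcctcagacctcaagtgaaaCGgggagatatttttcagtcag
Rorb, upstream start (chr19:19111147-19111446, minus strand, 20 CpG): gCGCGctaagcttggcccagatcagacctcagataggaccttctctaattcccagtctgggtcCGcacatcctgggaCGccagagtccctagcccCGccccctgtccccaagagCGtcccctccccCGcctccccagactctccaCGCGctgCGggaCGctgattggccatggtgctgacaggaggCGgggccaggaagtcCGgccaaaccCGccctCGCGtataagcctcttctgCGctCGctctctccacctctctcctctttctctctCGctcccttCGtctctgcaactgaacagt
Starts of the receptors Nr1h2, Nr1h3, Nr1i2, Nr1i3 and Rxra, chosen for their part in liver metabolism, differed in CpG number, shown here by Rxra and Nr1h2, which had the most among these 5 genes, and by Nr1i2, which had the fewest of those with 1 listed start. A second start of Rxra, not printed, held 1 CpG. No region at a 5' end was listed for these genes in either mouse.
Rxra (chr2:27676951-27677250, plus strand, 55 CpG): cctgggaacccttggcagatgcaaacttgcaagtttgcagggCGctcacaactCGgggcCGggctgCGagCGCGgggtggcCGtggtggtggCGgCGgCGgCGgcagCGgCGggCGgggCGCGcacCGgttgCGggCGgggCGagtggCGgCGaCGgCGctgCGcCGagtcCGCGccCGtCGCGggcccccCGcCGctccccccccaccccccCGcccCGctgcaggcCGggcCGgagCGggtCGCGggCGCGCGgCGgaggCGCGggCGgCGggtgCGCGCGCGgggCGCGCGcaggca
Nr1h2 (chr7:44553916-44554215, minus strand, 19 CpG): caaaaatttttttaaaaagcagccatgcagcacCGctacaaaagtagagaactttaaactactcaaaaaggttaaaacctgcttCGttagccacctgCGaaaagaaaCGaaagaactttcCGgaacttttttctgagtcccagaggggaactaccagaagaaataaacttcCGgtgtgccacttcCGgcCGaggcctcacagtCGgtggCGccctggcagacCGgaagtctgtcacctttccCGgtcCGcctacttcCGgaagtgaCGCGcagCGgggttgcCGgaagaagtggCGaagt
Nr1i2 (chr16:38294775-38295074, minus strand, 2 CpG): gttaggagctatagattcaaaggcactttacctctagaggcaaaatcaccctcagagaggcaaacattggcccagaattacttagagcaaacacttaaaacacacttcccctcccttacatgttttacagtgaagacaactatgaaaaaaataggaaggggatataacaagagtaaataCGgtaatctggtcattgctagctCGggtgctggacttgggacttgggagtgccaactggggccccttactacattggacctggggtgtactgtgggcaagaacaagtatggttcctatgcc
The start of Rorb met by a region held 5 CpG at 0.40 of the number its base composition predicts, and its upstream start, with no region, held 20 at 0.71. Rxra held 55 CpG at 1.08 of the predicted number and Nr1h2 19 at 0.99, whereas Nr1i2 held 2 at 0.13. Over 40 promoters of 27 receptor genes, the number of CpG ran from 1 to 55 with a median of 15.5, beside a median of 7 for 32851 promoters of all genes. The share with 20 or more CpG was 35.0% for the receptor genes and 26.5% for all.

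Because the Pemt+/+ list was deeper, each gene was read by the share of its tags that came from Pemt-/-, against the share of the median gene. Among 12354 autosomal genes that had regions in each mouse and 20 tags or more, the median share was 36.1%, with quartiles at 30.7 and 41.2%. The 27 receptor genes that met the same conditions had a median share of 35.6%, with 13 above and 14 below the median gene and 14 between the quartiles. Summed over the whole family, 36.4% of 7443 tags came from Pemt-/- (95% Wilson interval 35.3 to 37.5%). These intervals cover counting error only, and tags of one fragment copied by PCR are not independent.

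**Figure D1:**
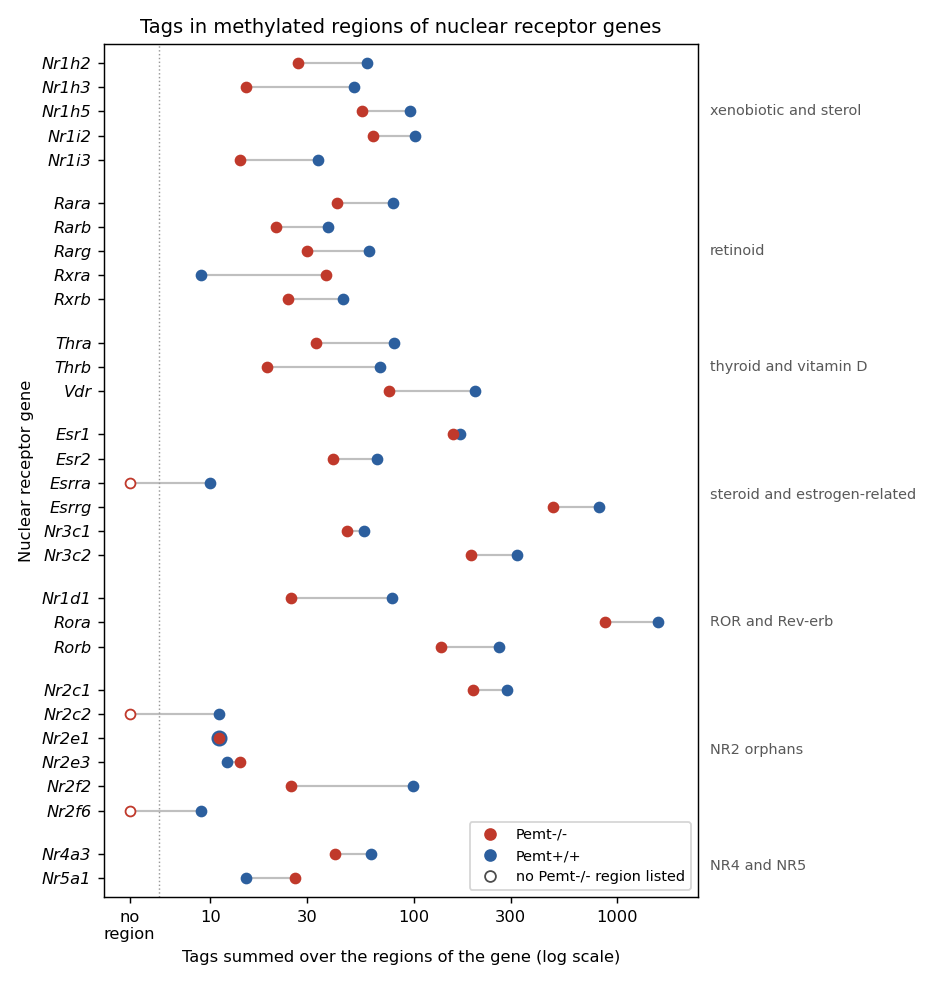
Tags summed over the methylated regions of each of the 30 nuclear receptor genes with a Pemt+/+ region (log axis), with Pemt-/- in red and Pemt+/+ in blue and open circles where no Pemt-/- region was listed. Rora reached 875 and 1593 tags, and Rxra, Nr5a1 and Nr2e3 were those with more Pemt-/- tags.

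A ratio of Pemt-/- to Pemt+/+ tags 1.5 times or more above that of the median gene was found for 5 of 27 receptor genes, Esr1, Nr2e1, Nr2e3, Nr5a1 and Rxra, beside 12.7% of all genes. A ratio 1.5 times or more below it was found for 4, Nr1d1, Nr1h3, Nr2f2 and Thrb, beside 15.1% of all genes. The Wilson interval of the share lay above the median gene for 4 of 27, Esr1, Nr2c1, Nr5a1 and Rxra, beside 13.9% of all genes, and below it for 5, Nr1d1, Nr1h3, Nr2f2, Thrb and Vdr, beside 14.9%. With counts this small, 1 gene more or less moves the receptor share by several points, and these shares are near those of all genes. At 2 times in place of 1.5, 3 remained above (Nr2e3, Nr5a1 and Rxra), beside 4.39% of all genes, and 2 below (Nr2f2 and Thrb), beside 6.23%. Over matched regions alone, 1 of 26 was 1.5 times or more above (Rxra), beside 5.92% of all genes, and 2 below (Nr1i3 and Nr2f2), beside 5.33%.

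**Figure D2:**
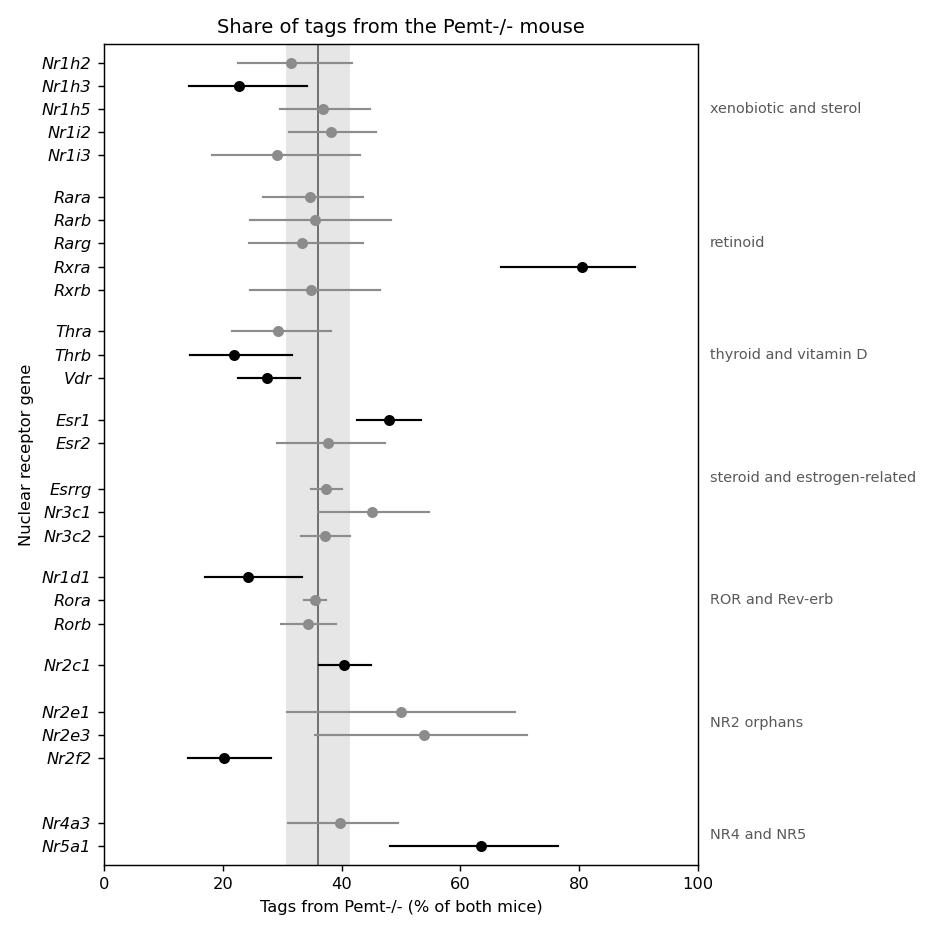
Share of tags from Pemt-/- for the 27 receptor genes listed in each mouse with 20 tags or more, in percent of all their tags, with 95% Wilson intervals as bars. The line is the median of 12354 genes at 36.1% and the grey band the range between their quartiles. Black marks the 9 genes whose interval misses the line, with Rxra farthest to the right at 80.4%.

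The receptors for oxysterols, bile acids and xenobiotics carried few regions, 9 in Pemt-/- and 15 in Pemt+/+ over 5 genes. Nr1h3 (GeneID 22259), the oxysterol receptor LXR alpha that drives cholesterol efflux and fatty acid synthesis, had 1 region with 15 tags in Pemt-/- and 3 with 51 tags in Pemt+/+. Its shared region, which began 5567 bp downstream of the transcript in Pemt+/+, held 15 and 33 tags, and both regions inside the gene, with 9 tags each, were listed in Pemt+/+ only. The share from Pemt-/- was 22.7% (14.3 to 34.2%), and 6.89% of genes had a lower one. Every Nr1h3 region was also assigned to a neighbouring gene.

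Nr1h2 (GeneID 22260), the broadly expressed LXR beta, had 2 regions with 27 tags in Pemt-/- and 3 with 59 tags in Pemt+/+. Its region inside the gene held 16 and 21 tags and its region 5036 bp upstream in Pemt-/- 11 and 20, while a Pemt+/+ region of 18 tags lay 7756 bp downstream. The share was 31.4% (22.6 to 41.8%), an interval that includes the median gene. Nr1h5, the mouse FXR beta, which senses lanosterol, had 56 Pemt-/- and 96 Pemt+/+ tags (36.8%). Its largest region, downstream and also assigned to another gene, held 42 and 49 of these, and without it the share was 23.0%.

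Nr1i2 (GeneID 18171), the pregnane X receptor that induces drug-metabolizing enzymes, had 3 regions with 63 tags in Pemt-/- and 5 with 102 tags in Pemt+/+. Both outer regions were shared, with 32 and 48 tags upstream, at 7633 bp from the start in Pemt+/+, and 21 and 23 tags downstream, at 5258 bp from the end. Between them the mice shared none: Pemt-/- had 1 region of 10 tags near the 5' end, chr16:38287309-38287631, and Pemt+/+ had 3 of 10, 11 and 10 tags near the 3' end, from 38251395 to 38254312. Its share of 38.2% (31.1 to 45.8%) was close to the median gene, so the totals hid regions that did not overlap. Every Nr1i2 region except that of 10 tags in Pemt-/- was also assigned to another gene. The share was 24.4% over regions inside or overlapping a transcript and 52.5% in the upper 50% of each list by score. Nr1i3 (GeneID 12355), the constitutive androstane receptor, had 1 shared region inside the gene, where 14 Pemt-/- and 34 Pemt+/+ tags gave a share of 29.2% (18.2 to 43.2%). That region was assigned to 3 genes.

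Rxra (GeneID 20181), the heterodimer partner of the receptors above and the main retinoid X receptor of hepatocytes, had a higher share than the other retinoid receptors. In Pemt-/- it had 3 regions with 14, 11 and 12 tags, and in Pemt+/+ 1 region with 9. The first lay 4586 bp upstream of the transcript (chr2:27527636-27528134) and the second inside it (chr2:27550477-27550803), and neither had a Pemt+/+ counterpart. The shared region, also inside, held 12 and 9 tags, a share of 57.1% (36.5 to 75.5%). That interval includes the 40.3% of the median gene over matched regions alone. Over all its regions the share from Pemt-/- was 80.4% (66.8 to 89.3%), above 99.98% of genes, on 46 tags in all. All 4 regions were close to the smallest sizes listed.

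Over all their regions, the other retinoid receptors lay near the median gene. Rara, the retinoic acid receptor of broad expression, had 42 tags in its 4 Pemt-/- regions and 79 in its 6 Pemt+/+ regions (34.7%). Its 3 shared regions were all downstream and also assigned to other genes. Inside the gene Pemt+/+ listed 3 regions and Pemt-/- 1, none of which overlapped. Over regions inside or overlapping a transcript the share of Rara was 21.4%. Rarb had 21 and 38 tags (35.6%), Rarg 30 and 60 (33.3%) and Rxrb 24 and 45 (34.8%). Rarb had no more than 2 regions in either mouse. With the RefSeq gene length of 651 kb this made 0.15 and 0.30 per 100 kb of gene and flanks, where the median gene had 4.77 and 7.09. The lists name only the Rarb transcript NM_011243.1, whose length on mm9 could not be derived. Regions far from that transcript would not be counted for Rarb, so these densities may be too low.

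Thyroid hormone and vitamin D receptors all had shares below the median gene, with a middle value of 27.4%. Thrb (GeneID 21834), the main thyroid hormone receptor of liver, had 1 region of 19 tags in Pemt-/- and 4 with 29, 10, 16 and 13 tags in Pemt+/+. The Pemt-/- region overlapped the Pemt+/+ region of 29 tags, and the other 3, all inside the gene, had no counterpart. The share was 21.8% (14.5 to 31.6%). In the shared region alone it was 39.6%, where the median gene over matched regions alone had 40.3%.

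Thra (GeneID 21833), the second thyroid hormone receptor, and Nr1d1 (GeneID 217166), the heme-binding repressor Rev-erb alpha of the circadian clock, lie tail to tail and share regions. Thra had 2 regions with 33 tags in Pemt-/- and 4 with 80 in Pemt+/+, and Nr1d1 had 1 with 25 tags and 4 with 78. Of these, 1 Pemt-/- region (25 tags) and 3 Pemt+/+ regions (14, 20 and 34 tags) were assigned to both genes and cannot be divided between them. The shares were 29.2% for Thra (21.6 to 38.2%) and 24.3% for Nr1d1 (17.0 to 33.4%), and the shared region inside Nr1d1, at chr11:98632389-98632800 in Pemt-/-, held 25 and 34 tags.

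Vdr (GeneID 22337), the vitamin D receptor, which in liver is found mostly in non-parenchymal cells, had 6 regions with 76 tags in Pemt-/- and 10 with 201 tags in Pemt+/+. Its share was 27.4% (22.5 to 33.0%), and 15.3% of genes had a lower one. A shared region inside the gene, chr15:97731216-97731647 in Pemt+/+, held 10 tags in Pemt-/- and 38 in Pemt+/+, a ratio of 0.26. The next region towards the start held 15 and 23. Around the 3' end the lists alternated: Pemt+/+ had a region of 26 tags across the end itself, chr15:97684697-97685036, and Pemt-/- had 10 tags 1184 bp beyond it and 9 tags inside, at chr15:97687801-97688052, none of them matched in the other mouse.

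Steroid and estrogen-related receptors held 59 regions in Pemt-/- and 71 in Pemt+/+. Esr1 (GeneID 13982), the estrogen receptor alpha, had 12 regions with 156 tags in Pemt-/- and 11 with 169 in Pemt+/+. The share was 48.0% (42.6 to 53.4%), and 90.7% of genes had a lower one. Its largest region, chr10:5359142-5359765 in Pemt+/+, held 37 and 48 tags, and the other 5 shared regions held between 8 and 18.

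The Pemt-/- regions without a counterpart were not scattered over Esr1. All 6 of them, with 9 to 12 tags each and 61 in all, followed each other between chr10:5370989 and 5425643, a stretch of 54.7 kb inside the gene. No Pemt+/+ region was listed anywhere in the 92.7 kb between the flanking Pemt+/+ regions, and the 5 regions listed in Pemt+/+ only all lay outside it. Within genes, a run of 6 or more consecutive regions listed in Pemt-/- only was found for 1 of 12786 genes, Esr1 (0.00782%). Of the 111 genes with 6 or more regions listed in Pemt-/- only, this was 0.901%. Along the autosomes, genes aside, the same Esr1 stretch was the only such run, beside 176 runs listed in Pemt+/+ only. The same run length in Pemt+/+ only was found for 0.4% of genes, 5.43% of those with as many regions of that kind, and for 0 receptor genes. This run was noticed after the values were seen. It was 6 long as well with an overlap of at least 50% or with equally long lists, where 3 genes had such a run, but 2 long in the upper 50% of each list.

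**Figure D3:**
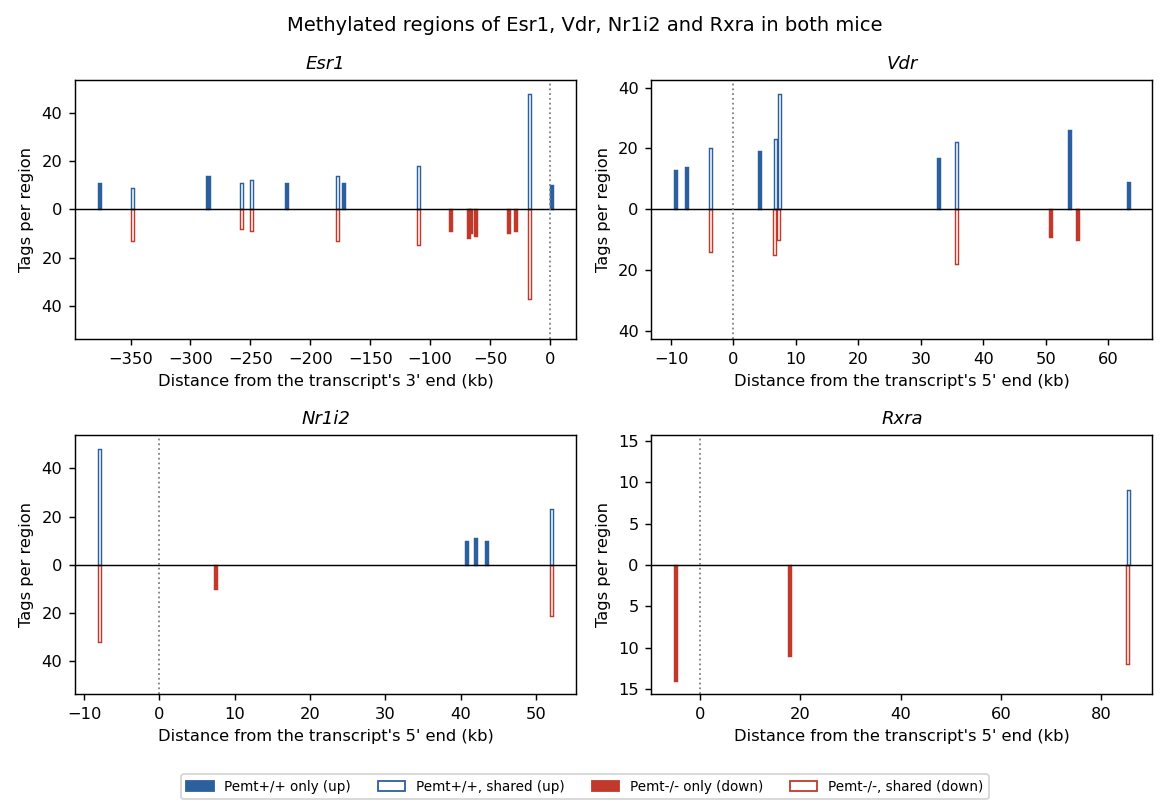
Tags per region against distance from a transcript end (kb, dotted line at 0) for Esr1, Vdr, Nr1i2 and Rxra, with Pemt+/+ upward, Pemt-/- downward and filled bars for regions listed in 1 mouse only; bar widths are not to scale. In Esr1 the 6 filled Pemt-/- bars stand together near the 3' end, in Nr1i2 the 3 filled Pemt+/+ bars do.

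Esrrg (GeneID 26381), a constitutively active orphan receptor of oxidative metabolism, had 486 tags in 27 Pemt-/- regions and 814 in 35 Pemt+/+ regions, which put its share at 37.4% (34.8 to 40.1%). Pemt-/- listed 2 regions of its own, with 9 and 16 tags, and Pemt+/+ 11, with 9 to 59 tags. The region of 59 tags, chr1:189892309-189893747, was the largest receptor region listed in 1 mouse only. Esrra, the related receptor that works with PGC-1 coactivators, had a single Pemt+/+ region of 10 tags, assigned to 4 genes. Esr2, the estrogen receptor beta, had 40 and 66 tags, a share of 37.7%.

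Nr3c2 (GeneID 110784), the mineralocorticoid receptor, had 191 tags in 14 Pemt-/- regions and 323 in 17 Pemt+/+ regions, which put its share at 37.2% (33.1 to 41.4%). Its matched regions lay on both sides of the median ratio. At chr8:79649392-79650015 in Pemt+/+ the mice had 8 and 28 tags, a ratio of 0.29, and at chr8:79766247-79766629 they had 29 and 22, a ratio of 1.32. A Pemt+/+ region of 32 tags at chr8:79666628-79667230 had no counterpart. Nr3c1, the glucocorticoid receptor, had 3 regions in each mouse, with 47 Pemt-/- and 57 Pemt+/+ tags (45.2%, 36.0 to 54.8%), and its region across the 3' end, with 19 tags, was listed in Pemt+/+ only.

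Rora (GeneID 19883), a constitutive activator of clock and lipid genes, had the most regions of the family, 51 with 875 tags in Pemt-/- and 73 with 1593 in Pemt+/+. Its share was 35.5% (33.6 to 37.4%), within counting error of the median gene. The gene is long, at 735 kb, and carried 6.76 and 9.67 regions per 100 kb, beside 4.77 and 7.09 for the median gene. Its highest region, chr9:68869658-68870032 in Pemt+/+, held 74 and 108 tags at 48.3- and 48.5-fold enrichment, the largest tag numbers of any receptor region in both mice. Pemt-/- listed 5 regions without a counterpart and Pemt+/+ 27. These 27 ran along the whole gene, and no more than 3 of them followed each other.

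**Figure D4:**
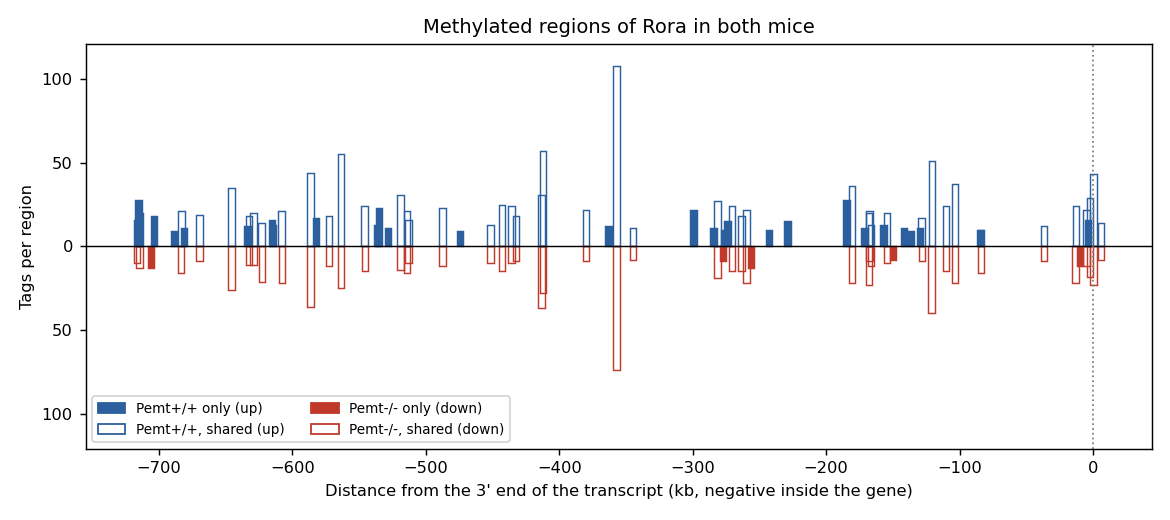
Tags per region along Rora against distance from the transcript's 3' end (kb), with Pemt+/+ upward, Pemt-/- downward and filled bars for regions listed in 1 mouse only; bar widths are not to scale. The tallest bars, 108 and 74 tags, face each other about 357 kb before the 3' end.

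Rorb (GeneID 225998), a related receptor known from retina and brain, had 137 tags in 11 Pemt-/- regions and 262 in 14 Pemt+/+ regions, which put its share at 34.3% (29.9 to 39.1%). The region at its inner start, the promoter with 5 CpG printed above, held 11 tags in Pemt-/- (chr19:19075064-19075831) and overlapped a Pemt+/+ region of 20 tags (chr19:19075210-19075578) that lay just inside the transcript. The Pemt-/- region was 768 bp wide and the Pemt+/+ region 369 bp. Further in, at chr19:19062311-19062904, the mice had 14 and 45 tags, a ratio of 0.31.

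The orphan NR2 receptors spread widely, from 20.2 to 53.8%. Nr2f2 (GeneID 11819), COUP-TFII, a regulator of vascular and metabolic genes, had the lowest share of all tested receptor genes, with 2 regions and 25 tags in Pemt-/- against 3 regions and 99 tags in Pemt+/+ (20.2%, 14.1 to 28.1%). All of them lay 1897 to 4037 bp downstream of the transcript. The region at chr7:77493231-77493905 in Pemt+/+ held 12 and 50 tags, a ratio of 0.24 that 0.119% of all pairs fell below, the next held 13 and 26, and the region of 23 tags farthest away was listed in Pemt+/+ only. Nr2c1 (GeneID 22025), the testicular receptor TR2, was densely covered, with 11 regions and 195 tags in Pemt-/- and 10 regions and 287 tags in Pemt+/+ (40.5%, 36.2 to 44.9%), or 15.8 and 14.4 regions per 100 kb. Nr2e1 had 1 shared region of 11 tags in each mouse, and Nr2e3, a photoreceptor gene regulator, had a region of 14 tags in Pemt-/- and another of 12 in Pemt+/+ on opposite sides of the gene (53.8%, 35.5 to 71.2%). Nr2c2 and Nr2f6 had 1 Pemt+/+ region each, with 11 and 9 tags, and none in Pemt-/-.

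Nr5a1 (GeneID 26423), steroidogenic factor 1 of adrenal and gonad, had 3 regions with 9, 9 and 8 tags in Pemt-/- and 1 of 15 tags in Pemt+/+. The region of 8 tags overlapped the 5' end of the transcript (chr2:38569806-38570188) and had no Pemt+/+ counterpart. The share was 63.4% (48.1 to 76.4%), above 98.9% of genes, but the 1 region found in both mice held 9 and 15 tags, a share of 37.5%, where the median gene over matched regions alone had 40.3%. Nr4a3, an immediate early receptor, had 41 and 62 tags, a share of 39.8%.

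Where regions of both mice matched one to one, the receptor genes behaved like the rest. Over 136 receptor pairs the median of Pemt-/- tags divided by Pemt+/+ tags was 0.683 (quartiles 0.55 and 0.822), and over 78303 autosomal pairs it was 0.682 (quartiles 0.545 and 0.85). Of the 136, 4 fell under the 5th percentile of all pairs (2.94%) and 7 over the 95th (5.15%). The lowest 4 belonged to Nr2f2, Vdr, Nr3c2 and Rorb, and the highest, at 1.6, was a Rora pair of 16 and 10 tags. More tags in Pemt-/- were seen in 8.82% of receptor pairs (5.12 to 14.8%) and 10.4% of all pairs.

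**Figure D5:**
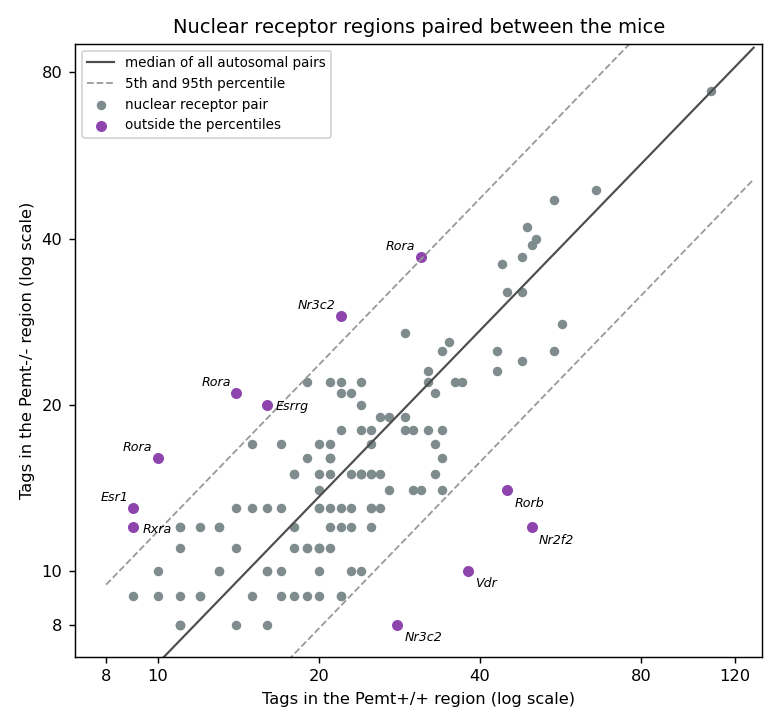
Tags in 136 receptor regions matched one to one between the mice, Pemt+/+ across and Pemt-/- upward (both log axes), with the median ratio of all autosomal pairs (0.682) as a solid line and their 5th and 95th percentiles (0.394 and 1.18) dashed. The 11 purple points lie outside the dashed lines.

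Regions without a match were more frequent in the longer Pemt+/+ list. Of the receptor regions, 80.9% in Pemt-/- (74.4 to 86.1%) and 61.2% in Pemt+/+ (54.8 to 67.3%) overlapped a region of the other mouse, beside 82.3% and 60.4% of all regions with a gene. A region listed in Pemt-/- only was found for 16 of 28 receptor genes, beside 45.1% of all genes, and one listed in Pemt+/+ only for 25 of 30, beside 76% of all genes. The median size of these regions was 10 tags in Pemt-/- and 12 in Pemt+/+, against 14 and 22 for shared ones. Nr1i3, Nr2e1 and Rxrb had matched regions only.

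The authors also deposited a shorter list for each mouse, whose regions have receptor regions with the positions of the longer lists but another fold and false discovery rate, and whose background is not given in the sources used here. In the shorter Pemt-/- list 2 of 31 receptor genes appeared, Vdr and Nr5a1, beside 8.32% of all genes. Their 3 regions held 9 to 10 tags and all had a listed false discovery rate of 100%, as did 2123 of the 2124 autosomal regions of that list. They were the Vdr regions on either side of the 3' end and an Nr5a1 region at chr2:38549568-38549836, none of which had a Pemt+/+ counterpart. In the shorter Pemt+/+ list 9 appeared, Esrrg, Nr1d1, Nr1i2, Nr2f2, Nr3c2, Rora, Rorb, Thra and Vdr, beside 19% of all genes, with 13 regions of 9 to 50 tags and false discovery rates of 25.3 to 35.8%. Of these 13, 3 overlapped a Pemt-/- region, those of Nr2f2, Vdr and Rorb with 50 against 12, 38 against 10 and 45 against 14 tags. The Nr2f2 region had the highest score of the 13, and 6.15% of the shorter list scored higher. The other 10 had no counterpart. They were 2 regions of Rora with 28 and 23 tags, 2 of Nr3c2 with 32 and 9, and 1 each of Nr2f2 with 23, Vdr with 17, Esrrg with 14, Rorb with 10 and Nr1i2 with 10, and the region of 14 tags that Thra and Nr1d1 share.

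Coregulators, target genes and clock partners of the receptors were read the same way, from lists chosen with earlier results of these data known. Of 20 coregulators 15 had regions, and the 14 with enough tags had a median share of 35.9%, with 1 gene 1.5 times or more above the median gene and 0 below, beside 12.7% and 15.1% of all genes. The ends were Ncoa4, a coactivator and ferritin receptor, with 19 and 18 tags (51.4%), and Ep300, a histone acetyltransferase, with 30 and 78 tags (27.8%). In the shorter Pemt-/- list 5 of the 15 appeared, among them Crebbp, Ncoa2, Ncoa4 and Ppargc1b, beside 8.32% of all genes. All their regions there had a listed false discovery rate of 100%. In that of Pemt+/+ 6 of the 15 appeared, among them Ncoa3, Ncoa7, Ncor1, Ppargc1b and Tbl1xr1, beside 19% of all genes.

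Liver target genes had a median share of 40.9% over 19 genes, with 4 past 1.5 times above the median gene and 2 below, beside 12.7% and 15.1% of all genes. Thrsp, the thyroid-responsive lipogenic gene, was highest with 89 tags in Pemt-/- and 78 in Pemt+/+ (53.3%, 45.7 to 60.7%), and Abcg1, an LXR-driven cholesterol exporter, lowest with 42 and 127 (24.9%, 18.9 to 31.9%). The others above were Abcb11 (80 and 82 tags), the bile salt export pump, Slc10a1 (22 and 23), the bile acid importer, and Srebf1 (22 and 22), the lipogenic factor, and the other below was Cyp26a1 (24 and 69), which degrades retinoic acid. Cyp7a1, the rate-limiting enzyme of bile acid synthesis, had 35 and 46 tags (43.2%). Of the 19, the shorter Pemt-/- list named 5, Abca1, Abcb11, Alas1, Mylip and Thrsp, beside 8.32% of all genes. Their regions there held 9 to 15 tags, all with a listed false discovery rate of 100%. That of Pemt+/+ named 4, Abcg1, Alas1, Mylip and Por, beside 19% of all genes.

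Clock partners had a median share of 31.1% over 10 genes, with 1 past 1.5 times above the median gene, Cry2, and 3 below, Arntl, Bhlhe41 and Per2, beside 12.7% and 15.1% of all genes. Arntl, the partner of CLOCK whose gene Rev-erb alpha represses, was lowest with 27 tags in Pemt-/- and 82 in Pemt+/+ (24.8%, 17.6 to 33.6%), and Cry2 highest with 18 and 19 (48.6%). Of the 11 clock partners with regions, 0 were in the shorter Pemt-/- list, beside 8.32% of all genes. In that of Pemt+/+ there were 4, Clock, Cry1, Hlf and Per2, beside 19% of all genes.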

How the data were processed

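Liver DNA of 1 Pemt-/- and 1 Pemt+/+ library was analysed from 4 deposited region lists, a longer and a shorter one for each mouse. The members and gene lists were chosen with earlier results of these data known. Per the labels, the DNA was bisulphite converted, a step the study's methods do not describe. The submitters' processing notes name CASAVA 1.8.2, Bowtie and mm9, and the region names are those of MACS. Settings, background, treatment of duplicates and library totals are not given in the sources used here. The sources also differ on the feeding time and the number of mice, and the series text was followed.

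The deposited values are counts of tags per region, a score of −10log10 of the p-value, the fold enrichment over the authors' background, and a false discovery rate in percent. These were used as the authors gave them. The longer lists also give genes within 10 kb, with the position of each region relative to RefSeq transcripts. The read depth outside regions is unknown.

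Regions on autosomes were counted once per gene, with the class nearest to the 5' end where transcripts differed. Regions overlapping by at least 1 bp (bedtools 2.31.1) were called shared. Shares have 95% Wilson intervals (scipy 1.17.1, Python 3.11.15), which cover counting error only. Genes listed in each mouse with 20 tags or more were set against the median gene. Regions per 100 kb used RefSeq gene lengths plus 20 kb, and these lengths may differ from those of the transcripts in the lists. Transcript ends on mm9 were derived from listed distances. Gene IDs of all 31 members matched the RefSeq table, and 27 had promoters. The code was tested on simulated lists.

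Members were named by symbol, and a few items are not reported here. Values in full were given for the 8 with the most tags, those in a shorter list, the 3 highest and 3 lowest shares, those with a region at a 5' end and a list of metabolic liver receptors. Related genes were named if in a shorter list or at the ends of a list's shares. The Nr1i2 promoter, the tags of Cyp7a1 and those of target genes past 1.5 times were added after the values were seen. Alternatives changed the score limit, list length, overlap, gene assignment, fold and tag minimum. Regions on sex chromosomes were left out.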

Additional observations from a re-analysis of the deposited data

How the results depend on the processing

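No paired analysis was possible because neither genotype was sequenced more than once. In the upper 50% of each list by score, the receptor genes kept 86 and 115 regions in Pemt-/- and Pemt+/+, 9 and 16 genes had a region in 1 mouse only, 0 regions overlapped a 5' end in Pemt-/-, the summed share was 34.6% and 2 genes were past 1.5 times above the median gene. With a Pemt+/+ list as long as that of Pemt-/-, shared regions came to 72.3% and 73.4% and the summed share to 40.2%. Paired regions only gave a summed share of 40.3% and a median of 40.7%, and the median of all genes moved as well, to 40.3%. Among regions naming 1 symbol, 89.9% and 88.6% were inside a transcript. Without Rora, an alternative chosen after seeing the data, 75.2% of the Pemt+/+ pairs were inside. Counts past the fold above the median gene were 3 with only regions inside or overlapping a transcript, 3 with a minimum of 40 tags and 3 at 2 times, where 2 lay below. With only regions inside or overlapping a transcript 6 lay below, Nr1h5, Nr1i2, Rara, Thra, Thrb and Vdr, beside 14.5% of all genes. Of these, only Thrb was below before. In paired regions only, a setting added for these counts after seeing the data, 1 lay above (Rxra) and 2 below (Nr1i3 and Nr2f2), so Esr1, Nr2e1, Nr5a1, Nr1d1, Nr1h3 and Thrb were no longer past the fold and Nr2e3 had no paired region. A listed rate of at most 50%, also chosen later, left 0 receptor genes in the shorter Pemt-/- list, where 2123 of 2124 regions have a rate of 100%, so this limit says nothing about these genes. Of the genes past the fold, Nr1d1 (42.4% in the upper 50% and in paired regions) and Nr5a1 (37.5% in paired regions) changed sides of that setting's median gene, and the cause was not tested. Over all receptor genes, 8 of 21 changed sides in the upper 50%, 2 of 26 with equally long lists, 4 of 21 inside or overlapping a transcript, 4 of 20 with 1 symbol and 8 of 26 in paired regions, Thra among them in the upper 50%, with 1 symbol and in paired regions. Most receptor regions hold under 20 tags, so a region missing from a list may differ from its counterpart by a few tags.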
